A study of Mus musculus with 13 samples.

Results

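Dazl, Dnd1, Nanos2, Nanos3, Elavl2 and Pum2 encode 6 RNA-binding regulators of germ cells. They were taken by name from the 35976 gene symbols of the count table, and their transcripts were followed in male primordial germ cells from mouse embryos at E14.5. All 6 members passed the filter on low counts, as did 14702 symbols in all. Primordial germ cells are the embryonic precursors of the gametes. In every group the cells were sorted by Oct4-GFP, in which green fluorescence reports activity of the pluripotency gene Oct4, and RNA was taken from 5000 cells per sample. The groups differed in Tet1, which encodes an enzyme that oxidises 5-methylcytosine in DNA. The groups were wild type (WT), knockout (KO), and the alleles HxD, known for a catalytically inactive TET1, and V, known for a TET1 that stalls at 5-hydroxymethylcytosine. Each genotype had 3 libraries, named here by genotype and replicate number. The labels do not say whether an allele is homozygous, which part of Tet1 the knockout lacks, or whether samples came from separate embryos or pools.

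RNA-binding proteins decide which transcripts a fetal germ cell translates, stores or destroys. DAZL binds the untranslated end of its targets and recruits poly(A)-binding protein, which favours translation. It is known for giving germ cells the competence to enter sexual differentiation. NANOS2 and NANOS3 are zinc finger proteins that, with DND1, recruit the CCR4-NOT deadenylase to transcripts and so favour their decay. NANOS3 is known for the survival of early germ cells, and NANOS2 for setting the male fate and holding back meiosis in the fetal testis. PUM2 is a Pumilio protein, a family that binds a short motif in transcripts and partners with NANOS proteins, and ELAVL2 belongs to the Hu family, which binds AU-rich elements and mostly stabilises transcripts.

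TET1 acts on cytosines in CpG dinucleotides, so the promoters of 3 members are printed here to show how far the members differ in CpG content. Sequences are from RefSeq on GRCm38.p6, run from 250 bases before to 50 bases after the start, are written 5′ to 3′ on the gene's strand, and carry each CpG in capitals.
Dazl, chr17:50293571-50293870, minus strand: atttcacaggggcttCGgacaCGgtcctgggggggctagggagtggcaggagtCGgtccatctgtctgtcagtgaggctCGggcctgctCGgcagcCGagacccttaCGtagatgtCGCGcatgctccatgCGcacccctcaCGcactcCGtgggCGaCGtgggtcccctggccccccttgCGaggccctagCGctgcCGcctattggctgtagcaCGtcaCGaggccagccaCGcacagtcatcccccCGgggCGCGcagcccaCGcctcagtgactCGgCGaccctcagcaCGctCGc
Nanos2, chr7:18987274-18987573, plus strand: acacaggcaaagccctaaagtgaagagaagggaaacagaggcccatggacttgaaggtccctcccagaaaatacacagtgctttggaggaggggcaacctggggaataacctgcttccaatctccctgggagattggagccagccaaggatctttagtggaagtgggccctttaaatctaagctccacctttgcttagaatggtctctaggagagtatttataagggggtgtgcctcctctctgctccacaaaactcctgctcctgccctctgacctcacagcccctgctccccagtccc
Pum2, chr12:8674009-8674308, plus strand: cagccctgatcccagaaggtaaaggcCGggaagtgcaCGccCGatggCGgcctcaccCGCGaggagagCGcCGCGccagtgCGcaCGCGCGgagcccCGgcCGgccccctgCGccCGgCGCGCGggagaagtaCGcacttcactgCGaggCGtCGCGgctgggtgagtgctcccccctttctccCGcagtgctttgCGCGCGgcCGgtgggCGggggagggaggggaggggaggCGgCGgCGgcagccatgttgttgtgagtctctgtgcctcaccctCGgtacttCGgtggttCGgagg
The Dazl promoter held 28 CpGs in its 300 bases, the Nanos2 promoter 0 and the Pum2 promoter shown 37. The median over the 32851 promoters of the table was 7, with quartiles of 3 and 20. Nanos3 had 3 CpGs, the 6 listed starts of Elavl2 had 10 to 27, and the 3 listed starts of Pum2 had 35 to 44. Of the 6 members, 5 had an entry in the table. The E-box CACGTG, which reads the same on both strands, was in none of these promoters, against 7.15% of all promoters. The E2F-type motif GGCGGGAA or its reverse complement TTCCCGCC was in 1 of the 3 Pum2 promoters and in no promoter of another member, against 2.19% of all. These are matches of letters, and DNA methylation is not part of this count table.

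Library totals ran from 13584484 to 29641963 counts. Tet1 had 201 to 225 CPM (counts per 1000000, after TMM scaling of library sizes) in the KO libraries and 364 to 735 CPM in the other 9 libraries, so the KO libraries matched their label. All 11 germ cell markers had counts in every library, with a summed level of 3841 to 4078 CPM in WT, 3740 to 4240 in KO, 4088 to 4518 in HxD and 4095 to 4353 in V. Markers of other gonadal cells were low in most libraries. The 8 Sertoli markers summed to 389 CPM in V 2, where all 8 had counts, and to 139 CPM in WT 3. Elsewhere their sum was 14.4 to 72.3 CPM. In WT, Sox9 and Cldn11 were at 0 in every library, while Amh, Aard and Wt1 reached 59.6, 41.6 and 20.5 CPM. The 7 macrophage markers summed to 30.8 CPM in V 2 and to at most 7.12 CPM elsewhere. Of the 7 endothelial markers, Emcn and Tie1 were at 0 in all 12 libraries, and Pecam1, which germ cells also express, gave most of the summed 141 to 296 CPM. The Leydig, interstitial, erythroid and granulosa lists summed to at most 35.7, 25.7, 13.5 and 13.95 CPM in any library. Among the 9250 genes with a mean of 8 CPM or more, WT 3 lacked any count for 104, HxD 2 for 36, V 3 for 33 and each other library for 0 to 22.

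Dazl (chromosome 17, 50279395 to 50293636, GRCm38, minus strand) was the most abundant member and the only one called changed. Its level was 1753, 1605 and 1906 CPM in the 3 WT libraries. The KO libraries had 757, 1071 and 720.3 CPM, the HxD libraries 944, 858 and 576 CPM, and the V libraries 1015, 672 and 1172 CPM. All 9 mutant libraries lay below the lowest WT library, with a gap between 1172 CPM in V 3 and 1605 CPM in WT 2. Of the 14702 genes tested, 1.29% had all 9 mutant libraries below all 3 WT libraries. Against single mutants, the ranges stood below WT without overlap for 8.15% of all genes in KO, 7.22% in HxD and 6.06% in V. Summed germ cell markers, which do not include Dazl, overlapped between KO and WT, with KO 2 the lowest at 3740 CPM. They were higher in every HxD and V library than in any WT library. The nearest were HxD 3 at 4088 CPM and WT 2 at 4078 CPM. Single markers went both ways. Pou5f1 averaged 316 CPM in WT, 464 in HxD and 516 in V, and Ddx4 averaged 862, 590 and 704 CPM. In bulk RNA, fewer cells of a type and less RNA per cell cannot be told apart.

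**Figure D1:**
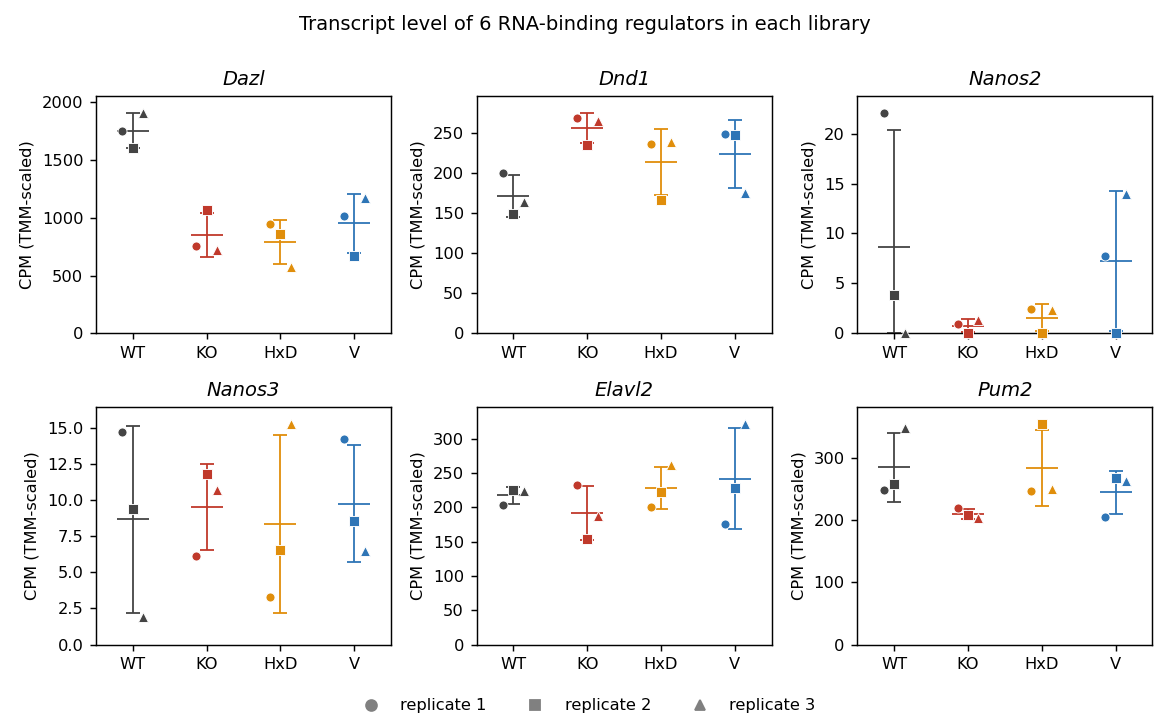
Level of each of the 6 genes in CPM after TMM scaling (linear axes from 0), by genotype; points are the 3 libraries of a genotype, shaped by replicate number, the horizontal line is their mean and the bar 1 SD, drawn no lower than 0. Dazl is the gene whose WT libraries (1605 to 1906 CPM) sit above every mutant library (576 to 1172 CPM).

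In KO, Dazl fell to 849 ± 193 CPM (SD, n = 3) from 1754 ± 150.5 CPM in WT. The log2 fold change was -1.05 (SE 0.19, 95% interval -1.44 to -0.66), a level 2.07-fold lower, with an adjusted p of 0.00943 in edgeR's quasi-likelihood test. It was the 1 member called of 6, where 0.218% of all genes were called in either direction and 0.15% lower. In HxD, Dazl fell to 793 ± 192 CPM, a log2 fold change of -1.15 (SE 0.19, 95% interval -1.54 to -0.76, edgeR adjusted p = 0.00935), 2.21-fold lower. Here too it was the 1 member called of 6, where 0.034% of all genes were called in either direction and 0.0204% lower, and 1 of the 14702 genes had a smaller p. The HxD call ended without HxD replicate 3, the library with the least Dazl (log2 fold change -0.95, edgeR adjusted p = 0.0539). WT 3 and V 3 each had the highest Dazl of their group and stood apart from the other libraries over all genes, WT 3 on the first principal component and V 3 on the third. With both left out the calls ended at folds near those reported, -0.98 in KO (edgeR adjusted p = 0.0955) and -1.08 in HxD (edgeR adjusted p = 0.0904).

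In V, Dazl had 953 ± 255 CPM, a log2 fold change of -0.88 against WT (SE 0.19, 95% interval -1.27 to -0.49), and its edgeR adjusted p of 0.19 missed the threshold. EdgeR called 0 members and 0% of all genes in V, while Dazl lower and Dnd1 higher had an unadjusted p under 0.05. Over all genes the same held for 3.2% in the lower direction and 2.85% in the higher. Ordered by edgeR's quasi-likelihood test from the smallest p, Dazl stood at rank 4 of the 14702 genes and Dnd1 at rank 773. DESeq2 called Dazl in V (log2 fold change -0.88, adjusted p = 0.0117), where it called 0.529% of the genes it gave an adjusted p. Over the 20 alternative settings the V value kept its sign, was called in 10 and ranged from -1.06 to -0.68. Some of these settings leave out only a KO or HxD library, which is not among the libraries compared. The value nearest to 0 came without V replicate 2, the library with the least Dazl of its group and the one with the high Sertoli and macrophage markers. In that setting the edgeR adjusted p was 0.408. WT 3, with the next highest Sertoli sum, had the highest Dazl of its group. The part of Sertoli and macrophage markers in the V value was not otherwise tested.

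The 3 mutants did not differ from one another in Dazl beyond their spread. From high to low the order was WT, V, KO and HxD, and only the step from WT to V was between ranges that did not overlap. The log2 fold change was -0.10 for HxD against KO (95% interval -0.48 to 0.29), 0.17 for V against KO (-0.22 to 0.55) and 0.27 for V against HxD (-0.12 to 0.65), with edgeR adjusted p of 1, 1 and 0.921. These intervals leave room for differences of up to about 0.65 on the log2 scale, so equal levels were not shown. The comparisons of KO, HxD and V with WT share the same WT libraries.

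**Figure D2:**
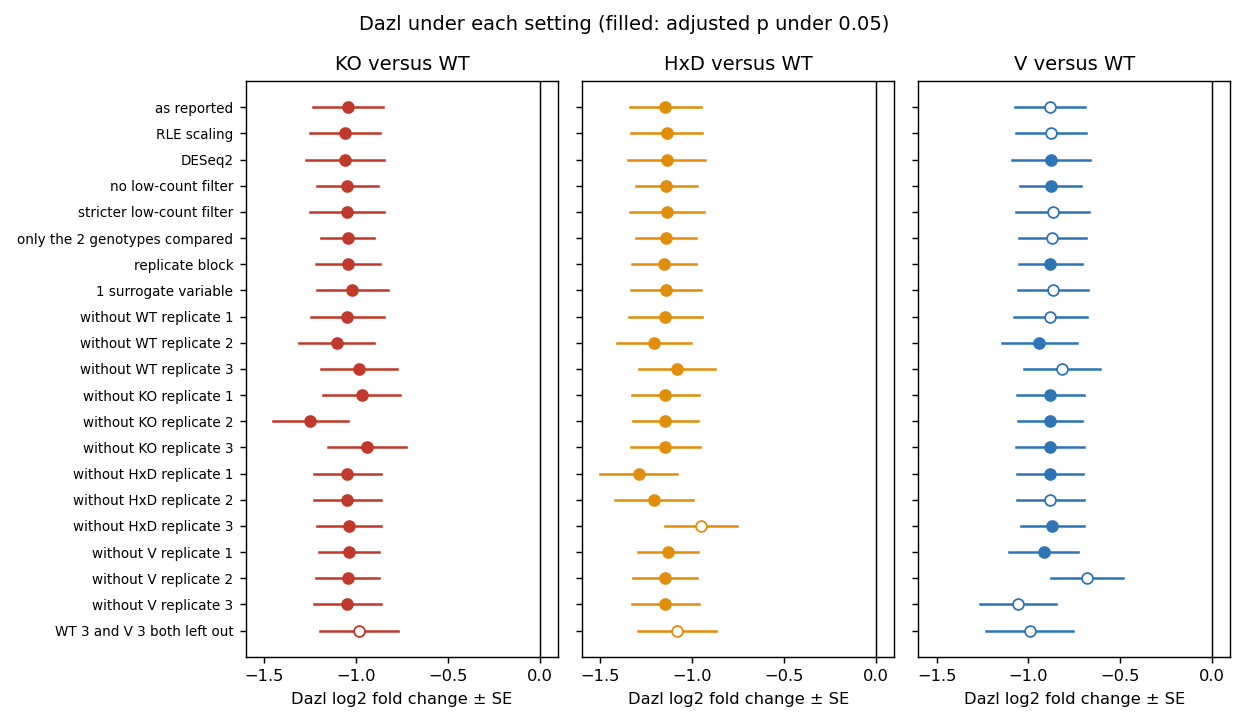
Log2 fold change of Dazl against WT (points, with bars of 1 SE) in KO, HxD and V as reported and under each of the 20 alternative settings; filled points have an adjusted p under 0.05. Every value lies below 0, from -1.25 to -0.94 in KO, -1.29 to -0.95 in HxD and -1.06 to -0.68 in V.

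Dnd1 (chromosome 18, 36763671 to 36766214, minus strand), which encodes the RNA-binding partner of the NANOS proteins, had values on the other side of WT. WT had 201, 149 and 165 CPM and KO 269, 236 and 266 CPM, and these ranges did not overlap, as held for 8.13% of all genes in this direction. The HxD libraries had 237, 166 and 239 CPM and the V libraries 249.7, 248 and 175 CPM, and both ranges overlapped WT. HxD 2 and V 3 fell within the WT range. The log2 fold change was 0.58 in KO (SE 0.18, 95% interval 0.21 to 0.96, edgeR adjusted p = 0.257), 0.32 in HxD (SE 0.18, adjusted p = 0.62) and 0.39 in V (SE 0.18, adjusted p = 0.82). None of these passed the test, and none did under any of the 20 alternative settings, where the KO value ranged from 0.49 to 0.71 and the smallest adjusted p was 0.0987. Exons of Dnd1 overlap those of Wdr55 on the opposite strand by 140 bases of 2412, and without a stated strand setting reads there cannot be assigned to one of them.

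Nanos2 (chromosome 7, 18987400 to 18988962, plus strand), the male fate regulator, was sparse and uneven. It had 22.1, 3.82 and 0 CPM in WT, 0.97, 0 and 1.30 CPM in KO, 2.39, 0 and 2.33 CPM in HxD and 7.78, 0 and 13.9 CPM in V. Each genotype thus had 1 library with a count of 0, namely WT 3, KO 2, HxD 2 and V 2, where 3 counts, the limit that a count of 0 allows, correspond to 0.131, 0.141, 0.128 and 0.136 CPM. Among the well-expressed genes WT 3 and HxD 2 lacked any count for 104 and 36, while V 2 did for 1 and KO 2 for 0. The fitted log2 fold change was -3.50 in KO (SE 2.09, 95% interval -7.77 to 0.77), -2.45 in HxD (SE 2.002) and -0.25 in V (SE 1.897), with edgeR adjusted p of 0.665, 0.8 and 1. Without WT replicate 1, which held most of the WT counts, these values became -1.33, -0.28 and 1.92. At this depth and spread a change in Nanos2 was not detectable. The antisense transcript Gm45058 overlaps 766 of the 1563 exon bases of Nanos2, and its reads cannot be told apart here.

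Nanos3 (chromosome 8, 84173731 to 84185217, minus strand), the regulator of early germ cell survival, had low CPM values in every genotype. Its level was 14.7, 9.37 and 1.88 CPM in WT, 6.14, 11.8 and 10.7 CPM in KO, 3.28, 6.55 and 15.2 CPM in HxD and 14.3, 8.55 and 6.46 CPM in V. The ranges of all 4 genotypes overlapped, and within a genotype the libraries were far apart, most so in WT. The log2 fold changes against WT were 0.14, -0.05 and 0.17 in KO, HxD and V, each with an SE of 0.91 and an edgeR adjusted p of 1. Their 95% intervals ran from -1.902 at the lowest to 2.02 at the highest, so a doubling or a halving lay inside each interval.

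Elavl2 (chromosome 4, 91250763 to 91400785, minus strand) and Pum2 (chromosome 12, 8674134 to 8752581, plus strand) were well expressed. Elavl2, the Hu family gene, had 203, 225 and 224 CPM in WT and 233, 154 and 187 CPM in KO. In HxD it had 201, 222 and 261 CPM and in V 176, 228 and 321 CPM, and all 4 ranges overlapped. Its log2 fold changes were -0.18, 0.07 and 0.15 in KO, HxD and V, each with an SE of 0.19, and the 95% intervals together spanned -0.58 to 0.55. The edgeR adjusted p values were 0.949, 1 and 1.

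Pum2, the Pumilio gene, had 248, 259 and 349 CPM in WT and 219.8, 209 and 203 CPM in KO, so every KO library was below every WT library. Such a gap in this direction was present for 8.15% of all genes. HxD had 247, 355 and 250.1 CPM and V 205, 267 and 263 CPM, both overlapping WT. The log2 fold change in KO was -0.44 (SE 0.18, 95% interval -0.80 to -0.07, edgeR adjusted p = 0.485) and did not pass the test. The values were -0.0073 in HxD and -0.22 in V, with adjusted p of 1 and 0.958. Without WT replicate 3, the WT library with the most Pum2, the KO value was -0.27. Pum2 in HxD stood above KO without overlap, as did 3.69% of all genes, with a log2 fold change of 0.43 (SE 0.18, edgeR adjusted p = 0.884).

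Between the mutants edgeR called 0 of the 6 members in each of the 3 comparisons, where 0.0068% of all genes were called for HxD against KO, 0.0204% for V against KO and 0% for V against HxD. At an unadjusted p under 0.05 there was 1 member for HxD against KO, Pum2, and 0 for the other comparisons, and DESeq2 called 0 in each. The matching shares of all genes at that unadjusted p were 4.67%, 4.1% and 5.07%, and those called by DESeq2 were 0.536%, 0.406% and 0.722%.

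**Figure D3:**
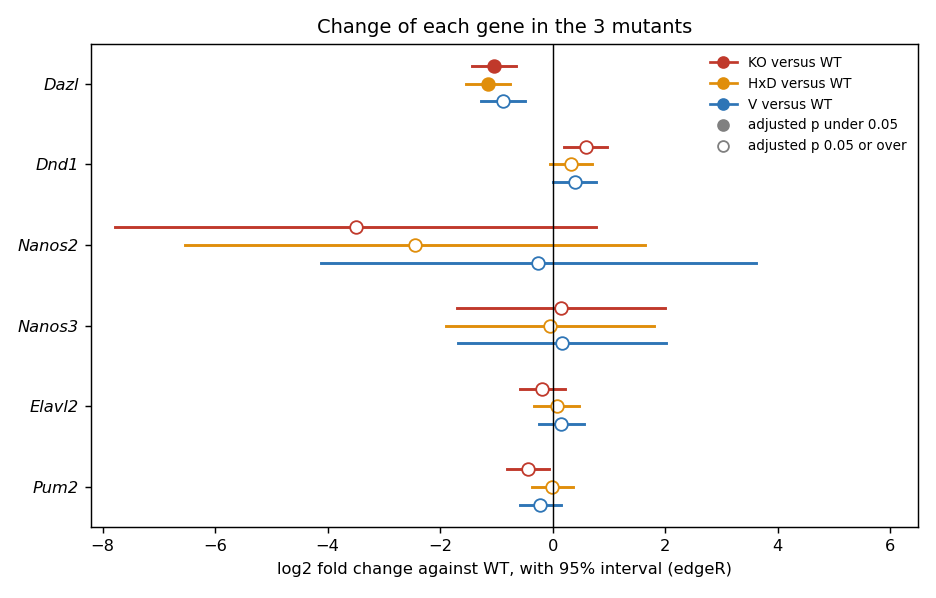
Log2 fold change of each gene against WT in KO, HxD and V (points) with the 95% interval of the edgeR fit (bars); filled points have an adjusted p under 0.05. Dazl in KO (-1.05) and HxD (-1.15) are the filled points, and the Nanos2 interval in KO runs from -7.77 to 0.77.

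Compared per length, as CPM per kb of exon in GENCODE M21, the members covered a wide range. Dazl averaged 459 CPM per kb in WT and 207.5 to 249 in the mutants, and its mean over all libraries lay above 99.5% of the 13511 tested genes with a length. Dnd1 followed with 71.1 CPM per kb in WT and 88.7 to 107 in the mutants. Pum2 had 39.3 and Elavl2 26.2 CPM per kb in WT, Nanos3 had 9.37 and Nanos2 5.52. By this measure Nanos2 stood above 38.5% of the tested genes and Nanos3 above 62.6%. The annotation behind the deposited counts is not given in the sources used here, so these lengths may differ from the counted ones.

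The members did not move as a block across the 12 libraries. On the log2 CPM scale Pearson's r was -0.69 between Dazl and Dnd1, -0.73 between Dnd1 and Pum2 and 0.31 between Dazl and Pum2, with the other pairs from -0.59 to 0.44. These describe 12 libraries of 4 genotypes, and both genes of a pair share the genotype and depth of each library. Among 8947 named genes averaging at least 8 CPM, those most like Dazl were Sec63, part of the protein import channel of the endoplasmic reticulum (r = 0.92), Arhgef18 (0.90), Sohlh2, a germ cell transcription factor gene (0.90), Cbx3, which encodes a heterochromatin protein (0.88), and the ubiquitin ligase gene Smurf1 (0.88). By Spearman's rank correlation, 3 of these 5, Sec63, Sohlh2 and Cbx3, were again among the 5 nearest. The correlations used all 12 libraries, so a change shared with Dazl is not independent of them. Smurf1 was lower in KO, with a log2 fold change of -1.28 (SE 0.29, edgeR adjusted p = 0.0495), just under the threshold. EdgeR called 0.218% of all genes in KO. Smurf1 had -1.38 in HxD (edgeR adjusted p = 0.0836) and -0.88 in V (edgeR adjusted p = 0.599). The other 4 genes had values of -0.34 to -0.57 in KO and were not called.

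Nanos2, averaging under 8 CPM, was left out of this search. The genes nearest to the other 4 members had r of 0.85 to 0.95. They were Bsg and Atp13a2 for Dnd1, Glrx3 and Zcchc3 for Nanos3, Noc3l and Usp37 for Elavl2, and Tnrc6c, a GW182 family gene of microRNA silencing, and Wdr35 for Pum2. With Spearman's rank correlation, 1 of these 8, Noc3l, was again among the 2 nearest of its member.

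Other RNA-binding proteins of germ cells formed a list of 42 genes, all tested, which holds relatives of the members and other regulators. EdgeR called 0 of them in KO, HxD or V against WT. In KO and in HxD, 5 had lower and 1 had higher levels at an unadjusted p under 0.05, and in V 3 lower and 1 higher. Over all genes those shares were 4.54% lower and 3.75% higher in KO, 4.82% and 3.42% in HxD, and 3.2% and 2.85% in V. DESeq2 called 2 of the list in KO and 0 in the others, where it called 1.46% of all genes in KO, 1.46% in HxD and 0.529% in V, shares above those of edgeR. The list's median log2 fold change was -0.23 in KO, -0.16 in HxD and -0.13 in V, beside 0.0026, -0.021 and 0.013 over all genes tested. Ddx4, the germ cell RNA helicase also known as Vasa, had 862 ± 108 CPM in WT, 532 ± 63.1 in KO, 590 ± 107 in HxD and 704 ± 148 in V. Its log2 fold change was -0.70 in KO (SE 0.17, edgeR adjusted p = 0.0823), -0.55 in HxD (SE 0.17, adjusted p = 0.377) and -0.29 in V (SE 0.17, adjusted p = 0.833). Ptbp2, a splicing regulator, had a log2 fold change of -0.75 in KO (SE 0.19, edgeR adjusted p = 0.108), and these 2 genes were the ones DESeq2 called in KO. Of the direct relatives, picked for kinship after the values were seen, Elavl1 had a log2 fold change of 0.0017 in KO and was not called. Nanos1 was sparse, at 4.48 ± 0.66 CPM in WT and 7.95 ± 3.23 in KO, and so was Boll, the relative of Dazl, at 3.28 ± 0.82 in WT and 3.07 ± 2.23 in KO.

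The CCR4-NOT deadenylase and the decapping machinery, through which NANOS and DND1 proteins act, gave 30 tested genes with 0 called by edgeR in any mutant against WT. DESeq2 called 1 in KO, where it called 1.46% of all genes. By unadjusted p under 0.05, KO and HxD each had 1 higher and 1 lower, and V had 1 higher and 4 lower. In either direction that unadjusted share was 6.67% of the list in KO and in HxD and 16.7% in V, beside 8.3%, 8.24% and 6.05% of all genes. Cnot8, a catalytic deadenylase subunit, had 23.0 ± 6.34 CPM in WT against 51.0 ± 11.8 in KO, 39.1 ± 2.82 in HxD and 43.9 ± 6.43 in V. Its log2 fold change in KO was 1.15 (SE 0.32, edgeR adjusted p = 0.172), and it was the gene DESeq2 called. Eif4enif1, which encodes an eIF4E transporter of processing bodies, had -0.41 in KO (SE 0.18, edgeR adjusted p = 0.544). The medians of the list were -0.13, -0.043 and -0.018 in KO, HxD and V.

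Poly(A)-binding and translation initiation partners, with which DAZL works, gave 15 tested genes of 16, and edgeR called 0 against WT. Lower levels at an unadjusted p under 0.05 were present for 3 in KO, 2 in HxD and 2 in V, and higher levels for 1, 0 and 1. The lower genes made up 20%, 13.3% and 13.3% of the list, beside 4.54%, 4.82% and 3.2% of all genes. Eif4g3, a scaffold gene of the cap-binding complex, had 234 ± 92.2 CPM in WT, 142 ± 3.80 in KO, 126 ± 2.05 in HxD and 142 ± 44.3 in V, with a log2 fold change of -0.72 in KO (SE 0.22, edgeR adjusted p = 0.237). Paip2, which encodes an inhibitor of poly(A)-binding protein, had -0.44 in KO (SE 0.17, edgeR adjusted p = 0.425) and -0.63 in HxD (SE 0.17, edgeR adjusted p = 0.256), and in HxD it was the 1 gene of the list that DESeq2 called. DESeq2 called 0 of the list in KO and V. The medians were 0.044, -0.064 and 0.0068.

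Transcripts described as bound by DAZL formed a list of 10, with 0 called by edgeR against WT and 1, Ddx4 in KO, by DESeq2. The unadjusted p was under 0.05 for 1 lower gene in KO, 2 lower and 1 higher in HxD, and 1 lower in V. These were 10%, 30% and 10% of the list, beside 8.3%, 8.24% and 6.05% of all genes, and the DESeq2 call stood beside 1.46% of all genes in KO. The medians were -0.09 in KO, -0.07 in HxD and -0.24 in V. Sox2, a pluripotency factor gene, had 234 ± 16.6 CPM in WT and 291 ± 16.3 in KO (log2 fold change 0.32, SE 0.17, edgeR adjusted p = 0.623). Sycp3, a synaptonemal complex gene chosen after its values were seen, had 27.5 ± 8.29 CPM in WT against 12.1 ± 2.85 in KO, 7.91 ± 3.61 in HxD and 9.44 ± 6.38 in V. Its log2 fold changes were -1.19, -1.80 and -1.54, with SEs of 0.67 to 0.68 and edgeR adjusted p of 0.644, 0.511 and 0.789.

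Of the 4 transcripts described as NANOS2 targets, Dazl is one and was the 1 called by edgeR in KO and HxD. Over all genes edgeR called 0.218% in KO and 0.034% in HxD. DESeq2 called Dazl alone of the 4 in KO, HxD and V, beside 1.46%, 1.46% and 0.529% of all genes. Sohlh2 had a log2 fold change of -0.39 in KO, -0.68 in HxD and -0.42 in V, with edgeR adjusted p of 0.629, 0.357 and 0.82. Stra8, the meiotic entry gene, named here after its values were seen, averaged 0.74 to 1.36 CPM in the 4 genotypes, too few counts for a change to be detectable. The 2 listed DND1 targets, Cdkn1b, a cell cycle inhibitor, and Lats2, a Hippo pathway kinase, had values of 0.33 and 0.12 in KO and an edgeR adjusted p of 1 each.

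**Figure D4:**
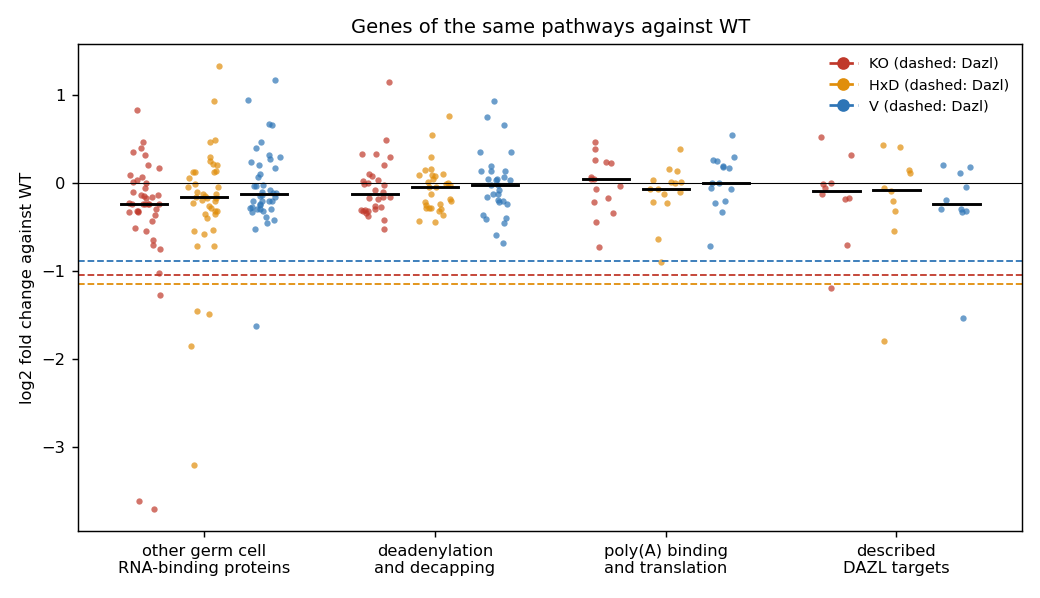
Log2 fold change against WT of each tested gene (points) in 4 lists of related genes, for KO, HxD and V, with the median of each list (black bar) and the Dazl value of each mutant (dashed line). The medians lie between -0.24 and 0.044, while Dazl lies at -1.05, -1.15 and -0.88; the lowest points, at -3.62 and -3.71 in KO, are Elavl3 and Elavl4, both averaging under 5 CPM in every genotype.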

How the data were processed

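RNA was measured by sequencing of poly(A)-selected libraries. The authors deposited raw read counts per gene symbol, with no normalization. The submitters' processing notes list featureCounts 2.0.3, SAMtools 1.9, STAR 2.7.10b, Trim Galore 0.6.7 and FastQC, and name GRCm39 and mm10 without a role. Annotation and strand setting were not given in the sources used here. Of the 13 labelled samples, 12 matched a column by name. The fourth WT sample was not analysed here, and 1 column that names no sample was not used.

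The default edgeR filter was applied. Counts were scaled by TMM and fitted with edgeR 4.0.16 (quasi-likelihood F-test, two-sided) over the 12 libraries, with genotype alone as a factor. P-values were adjusted by Benjamini-Hochberg over all 14702 genes, with a threshold of 0.05. The fit had a common biological coefficient of variation of 0.932. Standard errors were derived from the fold change and F, and the fits were tested on simulated data. All 6 pairs of genotypes were compared. Because the labels do not name separate animals or pools, p-values cover the spread among these libraries, possibly a technical one, and the 95% intervals rest on that same spread. Limits given for a count of 0 cover counting error only.

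Members and lists were chosen with earlier results of these data known. Besides the members and Tet1, the text names listed genes that were called or, where none was, the 2 with the smallest p in KO, and the genes closest by correlation (log2 CPM, prior count 2) to each of the 5 members averaging at least 8 CPM. Positions are from GENCODE M21 (GRCm38). Alternatives were RLE scaling, DESeq2 1.42.0, no filter, a filter of 8 CPM on average, fits on 2 genotypes, a replicate block, 1 surrogate variable (sva 3.50.0), leaving out each library, and leaving out WT 3 and V 3 together.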

Additional observations from a re-analysis of the deposited data

How the results depend on the processing

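Dazl kept its sign against WT in all 3 mutants under all 20 alternatives. It was called in 19 of them in KO, 18 in HxD and 10 in V. Some alternatives leave out a library of a genotype outside the comparison, which hardly moves the fold change. In V it stayed at -0.88 without KO replicate 1, 2 or 3, and Dazl was called in each of these settings. In V the count of members called went from 0 to 1 with DESeq2 (-0.88, adjusted p = 0.0117), without the low-count filter (-0.88, adjusted p = 0.000454) and with the replicate block (-0.88, adjusted p = 0.00633), and lay between 0 and 1 when single libraries were left out. With WT 3 and V 3 both left out, 0 members were called in KO (Dazl -0.98, adjusted p = 0.0955) and 0 in HxD (-1.08, adjusted p = 0.0904). Leaving out 1 library gave Dazl -1.25 to -0.94 in KO, -1.29 to -0.95 in HxD, with 0 to 1 members called, and -1.06 to -0.68 in V. The cause of these shifts was not tested.

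Signs reversed where values were near 0 or counts were few. Nanos3 in HxD was 0.028 with the replicate block and 0.49 with 1 surrogate variable, and in V against KO it was -0.0035 with the block. With 1 surrogate variable Nanos2 in V was 1.37, and Nanos3 was 0.35 for HxD against KO and -0.29 for V against HxD. Without WT 3 and V 3, Nanos3 was -0.34 in KO and -0.080 in V, Pum2 0.16 in HxD, Elavl2 -0.084 in V and -0.17 for V against HxD, and Dazl -0.0085 for V against KO. With single libraries left out, ranges crossing 0 were -0.34 to 0.76, -0.80 to 0.57 and -0.30 to 0.79 for Nanos3 in KO, HxD and V, -1.15 to 1.92 for Nanos2 in V, -0.030 to 0.15 and -0.10 to 0.35 for Elavl2 in HxD and V, and -0.20 to 0.16 for Pum2 in HxD. Between mutants they were -0.24 to 0.10 and -0.95 to 0.19 for Dazl and Nanos3 in HxD against KO, -0.0086 to 0.37 and -0.34 to 0.26 for the same genes in V against KO, and -0.082 to 0.22, -0.16 to 0.99 and -0.17 to 0.27 for Dnd1, Nanos3 and Elavl2 in V against HxD.

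Over all genes the calls moved from 32 to between 11 and 211 in KO, from 5 to between 1 and 215 in HxD and from 0 to up to 84 in V, with DESeq2 the highest in each. Between mutants the ranges were 1 to 99 (1 as reported) for HxD against KO, 0 to 69 (3) for V against KO and 0 to 112 (0) for V against HxD. The replicate block gave 104, 45 and 8 calls in KO, HxD and V. Deviations of same-numbered libraries of different genotypes correlated weakly (r from -0.14 to 0.12 over 18 pairs). Of the 12 libraries, 4 were closest to one of their own number. Weak correlations cannot settle whether the numbers pair the samples. Nanos2 could not be fitted with the stricter filter, which removes it. Mean CPM under RLE scaling or library totals stayed within 1 SD for each member and genotype.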
